A study of Rattus norvegicus with 6 samples.

Results

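The miR-125 family was described in small RNA libraries of PC12 cells, together with miR-3588, a miRNA annotated on the opposite strand of a miR-125b gene. Members were all rows of the count table named miR-125a, miR-125b or miR-3588, every arm and copy included. There were 6 such rows among 1289, 584 of them for known rat miRNAs and 705 for predicted ones. The rows were rno-miR-125b-5p, rno-miR-3588, rno-miR-125b-1-3p, rno-miR-125b-2-3p, rno-miR-125a-5p and rno-miR-125a-3p, written below without the prefix for rat.

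The series holds 6 libraries of PC12, a line from a rat adrenal pheochromocytoma, in 2 groups labelled EC and EN with 3 libraries each. Its title names peripheral nerve repair and endothelial exosomes engineered with Netrin-1, a guidance protein for growing axons. The labels do not spell out EC or EN and give no treatment, dose or time, so the groups are used as labelled. All libraries come from 1 cell line, and the labels do not say that replicates were separate cultures, so p-values measure only the spread between these samples.

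MiR-125 is the vertebrate relative of lin-4, the worm miRNA that times larval development. A miRNA hairpin yields a 5p and a 3p strand. The more abundant strand usually guides silencing of mRNAs that pair with its seed, bases 2 to 8. MiR-125b is abundant in brain, is known to promote neuronal differentiation and represses Lin28, which blocks let-7 maturation. Genes of the family lie in clusters with let-7 and miR-99 or miR-100 genes, and miR-125b-5p is made from a pair of gene copies whose 3p arms differ.

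The mature sequences show which rows can be told apart by sequence. They are given 5′ to 3′ as RefSeq lists them for the GRCr8 assembly, with the seed in capitals, and all 6 members matched an entry.
miR-125b-5p: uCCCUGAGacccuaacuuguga
miR-3588: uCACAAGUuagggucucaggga
miR-125a-5p: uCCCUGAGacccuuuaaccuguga
miR-351-5p: uCCCUGAGgagcccuuugagccuga
miR-125b-1-3p: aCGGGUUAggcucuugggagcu
miR-125b-2-3p: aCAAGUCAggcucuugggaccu
miR-125a-3p: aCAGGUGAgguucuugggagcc

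Over its whole length of 22 bases, miR-3588 was the reverse complement of miR-125b-5p. On GRCr8 the miR-125b-5p of the copy Mir125b2 spans positions 29732588 to 29732609 of chromosome 11 on the plus strand, and miR-3588 spans the same positions on the minus strand. Both genes overlap a long non-coding RNA gene, LOC103693508. The build listed in the submitters' processing notes is Rnor 6.0, so these positions place the genes relative to each other and do not belong to the counts. MiR-125b-5p, miR-125a-5p and miR-351-5p were the 3 of 693 listed mature rat miRNAs with the seed CCCUGAG. MiR-125b-5p and miR-125a-5p were identical over their first 13 bases, miR-125b-5p and miR-351-5p over their first 8.

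The other copy, Mir125b1 (chromosome 8, 50850036 to 50850122, plus strand), overlaps Lnc215, a long non-coding RNA gene, and Mir100hgl, listed as protein-coding. Its hairpin shows that 5p reads cannot be assigned to 1 copy, while 3p reads can. Capitals mark both arms.
Mir125b1 hairpin: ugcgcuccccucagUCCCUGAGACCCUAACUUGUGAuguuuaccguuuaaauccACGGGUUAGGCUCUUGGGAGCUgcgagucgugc
Its 5p arm, bases 15 to 36 of the hairpin, is the miR-125b-5p sequence that RefSeq lists for Mir125b2. The 3p arms of both copies differ at 4 of 22 positions, G3A, G4A, U7C and G20C, counted from the 5′ end of miR-125b-1-3p with its base first. Mir125a (mature 5p at chromosome 1, 67350689 to 67350712, plus strand) overlaps Spaca6, a protein-coding gene.

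The EC libraries held 6153582 to 6554639 miRNA counts and the EN libraries 4521694 to 5371351. Library totals implied by the deposited RPM were 19102486 to 21207786 in EC and 17861218 to 19993629 in EN. MiRNA counts made up 30.9 to 32.6% of these totals in EC and 25.0 to 26.9% in EN. A level is a row's count relative to that library's counts over the 628 rows kept for testing (CPM). It is scaled with TMM factors, which even out differences in composition. No length division was made, since the members are 22 to 24 bases long. Among 8 miRNAs listed for neuroendocrine identity, all were in the table and their summed level was 2214 to 2731 CPM in EC and 2286 to 2766 CPM in EN. MiR-7a-5p and miR-9a-5p carried most of it, with log2 fold changes of opposite sign, 0.35 (SE 0.12) and -0.40 (SE 0.15). Neither was called (edgeR adjusted p = 0.141 and 0.176). MiR-375-3p ranged from 1.99 to 3.19 CPM and the neuronal miR-124-3p from 0.154 to 1.10 CPM over all 6 libraries. Of markers of other cell types, 7 of 7 blood cell miRNAs were in the table, with summed levels of 94.5 to 127.7 CPM in EC and 157 to 179 CPM in EN. Most of this was miR-150-5p, and miR-144-3p was at 0 in 5 libraries. The 1 called row, miR-451-5p, stood at 5.10 to 9.77 CPM in EC and 19.7 to 30.5 CPM in EN (edgeR adjusted p = 0.0471). Not all of the blood list was higher in EN. MiR-142-5p stood at 0.479 to 1.07 CPM in EC and 0 to 0.457 CPM in EN. MiR-142-3p, at most 2.16 CPM, had a lower mean in EN with overlapping groups. MiR-223-3p and miR-486 reached at most 0.657 and 0.618 CPM. Both endothelial miR-126a arms together stood at 1064 to 1144 CPM in EC and 1086 to 1229 CPM in EN, where miR-126a-3p was at 0.07 on the log2 scale and miR-126a-5p was called lower at -0.86 (edgeR adjusted p = 0.0471). Of the muscle list 5 of 6 rows were in the table, at 186 to 198 CPM in EC and 153 to 193 CPM in EN. Most of this was miR-499-5p, at 168 to 193 CPM in EC and 151 to 190 CPM in EN. MiR-1-3p, miR-133a-3p and miR-133b-3p reached at most 1.39 CPM, and miR-206-3p 28.9 CPM in EC replicate 1 and at most 3.21 CPM elsewhere. The liver miR-122-5p stood at 5.96 to 9.74 CPM in EC and 8.23 to 14.4 CPM in EN. The source of these miRNAs and any part of other cell types in the results below were not tested.

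MiR-125b-5p, the guide strand, had 141677, 81836 and 562 counts in EC replicates 1 to 3 and 79990, 303 and 70337 in EN replicates 1 to 3. MiR-3588 had 419, 354 and 141918 counts in the EC libraries and 74, 70303 and 151 in the EN libraries. In EC replicate 3 and EN replicate 2 the miR-125b-5p row was almost empty and the miR-3588 row full, and in the other 4 libraries the reverse held. MiR-3588 took 0.295%, 0.431% and 99.6% of the pair's counts in the EC libraries and 0.0924%, 99.6% and 0.214% in the EN libraries. The widest exact binomial 95% interval of these shares ran from 99.5 to 99.6%, which covers counting error only, and reads are not known to be independent molecules. Each group thus had 1 library with the miR-3588 row leading. The group means of the share, 33.4 and 33.3%, differed by -0.151 percentage points (exact permutation test, two-sided, p = 0.5). With 1 library led by miR-3588 in each group, p could not fall below 0.5. The test therefore cannot show whether the share differs between groups.

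**Figure D1:**
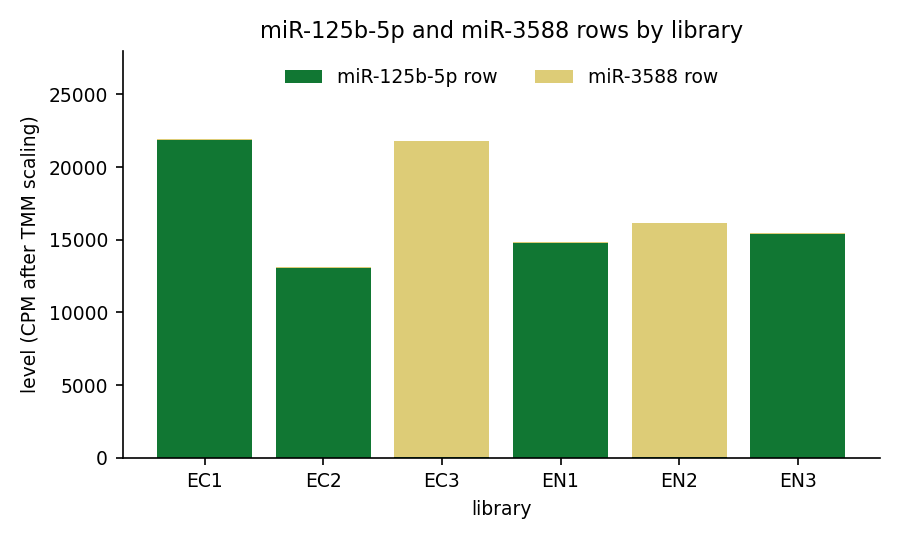
Stacked bars give the level (CPM after TMM scaling) of the miR-125b-5p row and the miR-3588 row in each of 3 EC and 3 EN libraries. One row holds nearly the whole bar in each library, and the summed height runs from 13124 to 21946 CPM in EC and from 14815 to 16142 CPM in EN.

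As deposited, neither row could be compared between groups with any precision. MiR-125b-5p averaged 11678 ± 10964 CPM over the EC libraries and 10093 ± 8686 CPM over the EN libraries (SD, n = 3), and its log2 fold change was -0.21 (SE 2.34). MiR-3588 averaged 7265 ± 12478 and 5373 ± 9266 CPM, with -0.44 (SE 3.49). The adjusted p from edgeR was 0.957 and 0.942, using its quasi-likelihood test and the Benjamini-Hochberg method over all rows. The log2 fold change of miR-3588 was 6.45 without EC replicate 3 and -8.24 without EN replicate 2, so each of these libraries sets its value.

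Summed, the pair is a quantity that does not depend on which row a read was given to. Its level was 21946, 13124 and 21759 CPM in EC replicates 1 to 3 and 14815, 16142 and 15442 CPM in EN replicates 1 to 3. EC replicates 1 and 3 were the highest of all libraries and EC replicate 2 the lowest, so the groups overlapped. The means were 18943 ± 5040 CPM for EC and 15467 ± 664 CPM for EN (SD, n = 3). The log2 fold change was -0.30 (SE 0.19), and the adjusted p of 0.430 from edgeR's quasi-likelihood test missed the threshold of 0.05. In that fit 5.1 percent of all rows passed. The call depended on EC replicate 2. Without it, the log2 fold change was -0.48 (SE 0.087) with edgeR adjusted p = 0.0256. Among the deposited rows fitted without that library, 39 of 636 were called, 26 of them lower. With library totals implied by RPM, the summed pair was at -0.62 (SE 0.18) with edgeR adjusted p = 0.0528. The median over all rows was then -0.30. Over all 16 alternatives edgeR, DESeq2 or limma-voom gave adjusted p between 0.0256 and 0.765.

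Rows most like the sum were picked over the same 6 libraries, so a similar place for EC replicate 2 follows from their choice. By Pearson correlation of log2 CPM among 626 other tested rows, given as a description, the closest were 1 predicted row (0.97), miR-532-3p (0.96), miR-24-3p (0.94), miR-30d-5p (0.94) and miR-30a-5p (0.93). MiR-532-3p had 1619, 403 and 1309 counts in the EC libraries and 339, 322 and 293 in the EN libraries. MiR-24-3p had 428046, 213402 and 343869 counts in EC and 200841, 161986 and 172259 in EN. In both, the unscaled count of EC replicate 2 was above each EN library but nearer to these than to the other EC libraries. Libraries share depth and scaling across rows, and the part of EC replicate 2 in these likenesses was not tested. The miR-125b-5p row alone was closest to miR-9b-5p (0.91) and also had its cluster neighbour let-7a-2-3p among the 5 closest (0.84). MiR-3588 was closest to miR-877 (0.90). For these single rows the values follow which of both rows held the counts in EC replicate 3 and EN replicate 2, and are no measure of shared expression.

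MiR-125b-1-3p, the passenger strand of the chromosome 8 copy, had levels of 1258, 1057 and 1021 CPM in EC replicates 1 to 3, against 699, 907 and 739 CPM in EN replicates 1 to 3. All EN libraries lay below all EC libraries. The means were 1112 ± 127.8 CPM and 782 ± 110.4 CPM (SD, n = 3), and the log2 fold change was -0.51 (SE 0.15). It missed the threshold in edgeR's quasi-likelihood test (adjusted p = 0.0924), whereas DESeq2 gave adjusted p = 0.0196 for -0.52. Over the 16 alternatives the adjusted p ran from 0.0135 to 0.263.

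MiR-125b-2-3p, the passenger strand of the chromosome 11 copy, was far less abundant. Its levels were 68.1, 71.2 and 60.5 CPM in EC, against 67.0, 80.5 and 78.4 CPM in EN. The groups overlapped, the log2 fold change was 0.18 (SE 0.15), and the adjusted p was 0.571 by edgeR's quasi-likelihood test. Scaled by the library totals implied by the deposited RPM, its log2 fold change became -0.16, and that of miR-125b-1-3p became -0.85 with adjusted p = 0.0135.

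The ratio between the 3p arms of both copies within a library needs no scaling factor. Whether it follows the balance of the gene copies was not tested. MiR-125b-1-3p made up 94.9, 93.7 and 94.4% of the 3p counts of both copies in the EC libraries and 91.3, 91.9 and 90.4% in the EN libraries. The exact binomial 95% intervals reached down to 93.1% in EC and up to 92.7% in EN, and these cover counting error only, not the spread between libraries. Per count of miR-125b-2-3p there were 14.8 to 18.5 counts of miR-125b-1-3p in EC and 9.43 to 11.3 in EN. The log2 ratio averaged 4.06 ± 0.16 in EC and 3.37 ± 0.13 in EN (SD, n = 3), a difference of -0.69. The two-sided exact permutation p was 0.1, the smallest that 3 against 3 libraries allow, and 0.4 after Benjamini-Hochberg adjustment over 4 such quantities. This ratio and that of the miR-125a arms were added after the data had been seen. Without each library in turn the difference stayed between -0.77 and -0.61.

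Guide to passenger balance of miR-125b did not separate the groups. The summed pair held 16.5, 11.6 and 20.1 counts per 3p count in the EC libraries and 19.3, 16.3 and 18.9 in the EN libraries. EC replicate 2 was again the lowest library. The log2 ratio was 3.97 ± 0.40 in EC and 4.18 ± 0.13 in EN (SD, n = 3), with an exact permutation p of 0.7, or 0.7 adjusted over the 4 quantities. Without EC replicate 2 the difference of 0.21 became -0.0088.

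MiR-125a-5p, the paralog with the same seed, had levels of 3166, 3734 and 4069 CPM in EC, against 3069, 3164 and 3131 CPM in EN. All EN libraries lay below all EC libraries, but EC replicate 1 and EN replicate 2 nearly met. The EC libraries spread more, with means of 3656 ± 457 and 3121 ± 48.6 CPM (SD, n = 3). Its log2 fold change was -0.23 (SE 0.11), with adjusted p = 0.296 by edgeR's quasi-likelihood test. With library totals implied by RPM it was -0.56 with adjusted p = 0.0224.

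MiR-125a-3p, its passenger strand, had levels of 60.4, 53.5 and 48.0 CPM in EC, against 55.1, 67.0 and 67.7 CPM in EN, with overlapping groups. The log2 fold change was 0.23 (SE 0.16, adjusted p = 0.471 by edgeR), and -0.11 with library totals implied by RPM. Per 3p count there were 52.4, 69.8 and 84.9 counts of miR-125a-5p in the EC libraries and 55.6, 47.2 and 46.3 in the EN libraries. EC replicate 1 fell among the EN libraries. The log2 ratio of 6.08 ± 0.35 in EC and 5.63 ± 0.15 in EN (SD, n = 3) differed by -0.45, with an exact permutation p of 0.2, or 0.4 adjusted over the 4 quantities.

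**Figure D2:**
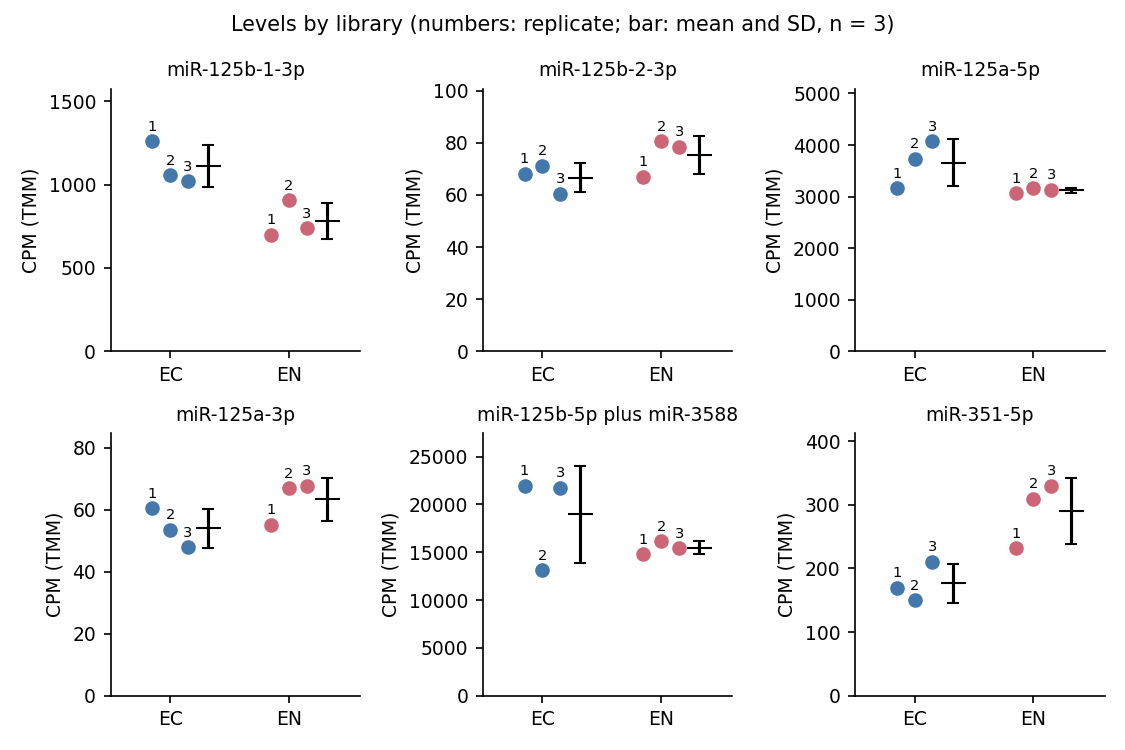
Points give the level (CPM after TMM scaling, axes from 0) of each library by group, numbered by replicate, and the black bars the mean and SD of 3 libraries. MiR-125b-1-3p and miR-125a-5p have all EN points below all EC points, miR-351-5p has all EN points above, and the summed pair has 1 low EC point, replicate 2.

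In order of mean level, the summed pair came first in both groups, at 3.51 to 6.93 times the counts of miR-125a-5p. MiR-125a-5p, miR-125b-1-3p and then miR-125b-2-3p and miR-125a-3p followed. These last members, at 66.6 ± 5.53 and 53.9 ± 6.23 CPM for EC and 75.3 ± 7.27 and 63.3 ± 7.05 CPM for EN (SD, n = 3), nearly met in EC and overlapped in EN.

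All 6 member rows were tested and none passed edgeR's quasi-likelihood test over all rows, where 25 of 628 rows, or 3.98 percent, were called. At an unadjusted p under 0.05 there was 1, miR-125b-1-3p, beside 21.7 percent of all rows. DESeq2 also called 1 of the 5 members for which it gave an adjusted p, beside 18.5 percent of all such rows. Neither share of members stands out from that of all rows. Groups did not overlap, with EN lower, in 2 of 6 member rows, against 14.6 percent of all rows. The median log2 fold change of the 6 rows was -0.22, beside 0.02 over all 628 rows, and 4 of 6 were negative, beside 49.2 percent of all rows. With library totals implied by RPM all 6 were negative with a median of -0.54, as were 77.1 percent of all rows with a median of -0.30. These 6 are not independent, since either miR-125b-5p or miR-3588 held nearly all of the pair's counts in each library.

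MiR-351-5p, of an X-linked cluster with miR-503 and miR-322, is the 1 other row with the miR-125 seed. Its levels were 169.6, 150.3 and 210.6 CPM in EC, against 231.7, 309.6 and 329.9 CPM in EN, all EN above all EC, as in 15 percent of all rows. The log2 fold change was 0.72 (SE 0.19), opposite in sign to those of miR-125b-5p with miR-3588 and of miR-125a-5p, and it did not pass edgeR's test (adjusted p = 0.0852). With library totals implied by RPM it was 0.38. At these levels it was a small part of the counts with this seed.

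Neighbours in the clusters of the family were read from 12 rows fixed by name. None passed edgeR's quasi-likelihood test over all rows, 2 had an unadjusted p under 0.05, fewer than the share over all rows, and 8 had positive and 4 negative log2 fold changes with a median of 0.09. One of the 4 is let-7a-5p at -1.67 (SE 2.37), whose counts were only 142 and 626 in EN replicates 1 and 3, where the miR-3596a row was full, so its sign is no measure of the miRNA. Of 11 tested with library totals implied by RPM, 9 were negative and 2, miR-99a-3p and let-7c-5p, were called lower, at -0.70 and -0.42, beside 14.2 percent of all rows. MiR-99b-5p and miR-99b-3p were the 2 that stayed positive, at 0.13 and 0.06. Beside miR-125a, miR-99b-5p was at 0.47 (SE 0.13) and miR-99b-3p at 0.40 (SE 0.11) on the log2 scale, with all EN libraries above all EC libraries and edgeR adjusted p of 0.0861 and 0.0885. Let-7e-5p of the same cluster was at -0.09 (SE 0.18). Beside miR-125b-1, miR-100-5p was at 0.16 (SE 0.089) and let-7a-2-3p at 0.05 (SE 0.18). Beside miR-125b-2, miR-99a-5p was at 0.07 (SE 0.070) and let-7c-1-3p at 0.11 (SE 0.21), while miR-99a-3p was at -0.37 (SE 0.17), all EN below all EC. Guide strands of let-7a and let-7c also come from copies outside these clusters. Arms within a cluster had log2 fold changes of both signs with TMM scaling, and differences between neighbours were not tested.

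**Figure D3:**
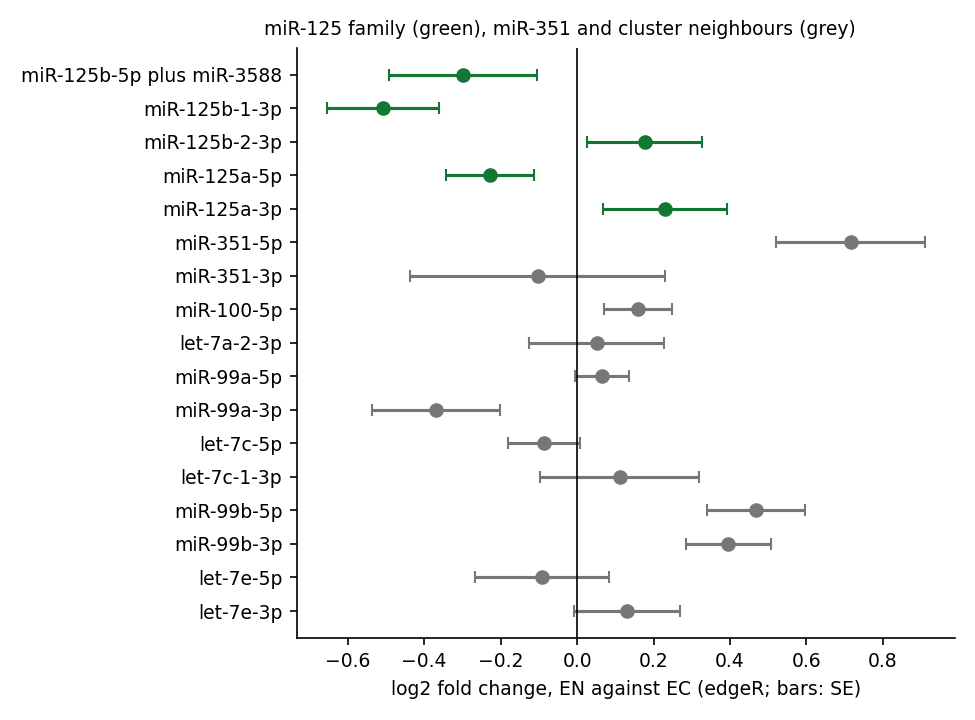
Points give log2 fold changes of EN against EC from edgeR, and bars 1 SE each way, for the summed pair and 4 other members (green) and for miR-351 and cluster neighbours (grey). The neighbours let-7a-5p (-1.67, SE 2.37) and miR-100-3p (0.13, SE 0.48) are not drawn. The summed pair, miR-125b-1-3p and miR-125a-5p lie left of 0, both other 3p arms of the family right of 0 (left of 0 with library totals implied by RPM), and miR-351-5p is farthest right at 0.72.

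Rows of other miRNAs with complementary sequences were read for shares that moved between libraries as those of miR-125b-5p and miR-3588 did. Over the 530 rows with a listed sequence, 33 pairs were reverse complements over at least 15 bases, and 18 of these had a mean summed count of 1000 or more. In 4 of the 18 the complement covered the whole of both mature miRNAs, and there the partner's share of counts ranged over 98.9 to 100 percentage points between libraries. Besides miR-3588, these partners were miR-3596a of let-7a-5p, miR-3557-3p of miR-378a-5p and miR-3570 of miR-181a-1-3p. In the pair of miR-501-3p and miR-3560, of 23 and 22 bases with 22 complementary, the share ranged over 92.8 points. In the remaining 13 pairs, with fewer complementary bases, it ranged over 0.02 to 32.6 points with a median of 0.39.

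The partner row led in EC replicate 3 and EN replicate 2 for miR-3588, and in those libraries and EN replicate 3 for miR-3557-3p. It led in EN replicates 1 and 3 for miR-3596a, and in EC replicate 1 and EN replicates 1 and 2 for miR-3570. A like pattern appeared on 1 strand. Let-7a-1-3p and let-7c-2-3p, the 1 pair of rows with identical listed sequences, had 22, 2086 and 9 against 1821, 2 and 2017 counts in the EC libraries and 2, 1421 and 23 against 2109, 3 and 1283 in the EN libraries. The step that set which row received the counts was not tested.

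**Figure D4:**
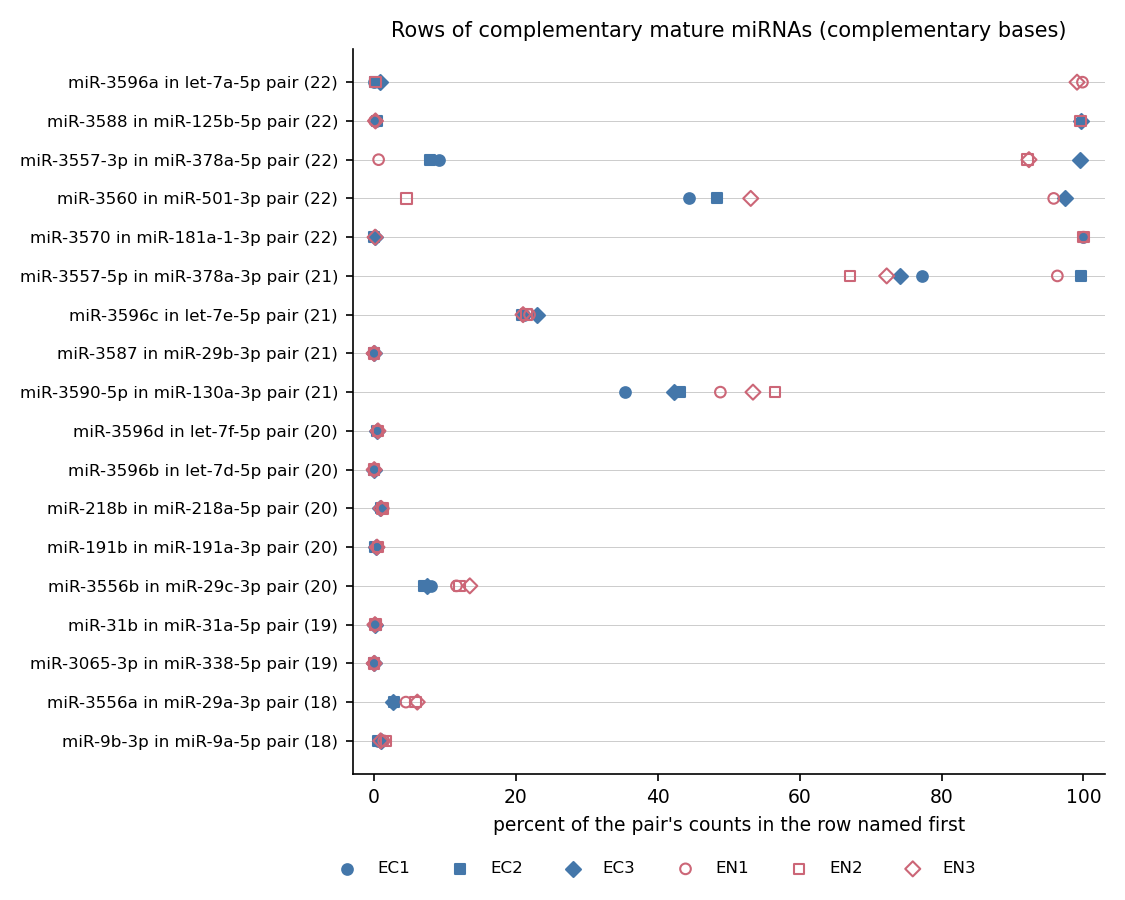
Each line is a pair of rows with complementary mature sequences and a mean summed count of 1000 or more. Markers give the percent of the pair's counts in the row named first for each EC (filled) and EN (open) library, with the number of complementary bases in brackets. Shares of the pairs with 22 complementary bases spread over 92.8 to 100 points, and those of all other pairs over at most 32.6 points.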

How the data were processed

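Small RNA of 6 PC12 libraries was counted per mature miRNA. The authors deposited whole-number read counts and RPM values, and each RPM value equals the count over 1 library total, within 0.00152. The authors' deposited group means of counts (listed as signal) and of RPM were not used. HISAT2 2.0.5 and Rnor 6.0 stand in the submitters' processing notes. Neither labels nor notes used here name the counting program, the strand setting or the handling of reads with several matches.

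The comparison of counts used edgeR 4.0.16 in R 4.3.3 (filterByExpr, TMM, robust quasi-likelihood, Benjamini-Hochberg over all rows tested). The sum of miR-125b-5p and miR-3588 replaced both rows in a refit of the whole table, in which 627 rows were tested and 32, or 5.1 percent, called. Standard errors are the absolute fold change over the square root of F. Ratios within libraries are log2 with a pseudocount of 1, compared by exact permutation tests in scipy 1.17.1, and shares have Clopper-Pearson intervals at 95%. Alternatives were RLE or no factors, no filter, a mean of 10 CPM, DESeq2 1.42.0, limma-voom 3.58.1, each library left out, a replicate block, no predicted rows, RPM totals, and all complementary rows summed. The edgeR fit was tested on simulated data. Named rows were the members, rows with their seed, 12 cluster neighbours, complementary pairs and the 5 rows most like the pair. Members and lists were chosen with earlier results of these data known. Sequences are RefSeq's, for 530 of 584 known rows.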

Additional observations from a re-analysis of the deposited data

How the results depend on the processing

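The 25 calls over all rows became 44 without a filter, 88 with DESeq2, 101 with library totals implied by RPM, 2 with the replicate block, and 2 to 39 without 1 library. The summed pair, miR-125b-1-3p and miR-125a-5p had negative log2 fold changes in all 16 alternatives each. MiR-125b-1-3p newly passed with DESeq2 (-0.52) and with totals implied by RPM (-0.85), as did miR-125a-5p (-0.56) with those totals. DESeq2 called 18.5 percent of all rows with an adjusted p, and edgeR with those totals called 14.2 percent of 619 rows lower. With those totals miR-125b-2-3p (-0.16) and miR-125a-3p (-0.11) turned negative, where the median over all rows was -0.30 in place of 0.02. Without 1 library the log2 fold change ranged from -0.48 to -0.17 for the summed pair, past the threshold only without EC replicate 2, from -0.76 to 0.65 for miR-125b-5p and from -8.24 to 6.45 for miR-3588. The difference in the share of miR-3588 ranged from -33.3 to 32.9 points, and that in the log2 ratio of the summed pair to its 3p arms from -0.0088 to 0.39. The cause of these shifts beyond the changed divisor and the fewer libraries was not tested. DESeq2 gave no adjusted p for miR-3588. With all complementary rows summed, the single rows of the pair have no value.

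With the replicate block the summed pair had a log2 fold change of -0.26 (edgeR adjusted p = 0.549) and no member passed. For the pairing, deviations from the group means correlated at 0.091, -0.036 and 0.018 within replicates 1, 2 and 3. With 3 libraries a group these values cannot show whether libraries of the same number were handled together. The best match of EC replicates 2 and 3 and of EN replicate 2 was another number. Depth limits miR-125b-2-3p and miR-125a-3p, at 293 to 446 counts a library.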
